A study of Homo sapiens with 6 samples.

Results

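The platelet-derived growth factor (PDGF) genes PDGFA, PDGFB, PDGFC and PDGFD, the PDGF receptor genes PDGFRA and PDGFRB and the related receptor gene KIT were measured in U87-2M1 cells, an invasive subline of the human glioma line U87. All 16 probe sets that the platform annotation gives to 1 of these 7 gene symbols were taken, out of 41091 probe sets and 19775 genes named that way. The probe set with the highest mean signal over the 6 arrays stood for each gene. That mean is the measured value the choice used, and the difference between the groups did not enter it. The genes themselves were picked with earlier results of these data known, among them a higher PDGFRA, so the tests below are no independent support for that gene.

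The 3 miR-10b decoy arrays came from U87-2M1 cells transduced with a baculoviral vector that carries a decoy for the microRNA miR-10b, and the 3 control decoy arrays from the same subline with a baculoviral control decoy. Baculovirus is an insect virus used here to bring a gene into mammalian cells, and a decoy RNA offers binding sites that occupy a microRNA and so hold it off its targets. Both groups were passage 4 cells kept in hypoxia in medium with serum, and the subline was recovered from an experimental lung metastasis assay, so it stands for 1 selected line. The labels do not say that replicates were separate cultures, and p-values then measure the spread between these arrays, which may be technical.

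PDGFs are secreted dimers that draw pairs of receptor chains together, so that the receptors phosphorylate each other and recruit signalling proteins. PDGFRA binds dimers made from the A, B and C chains, and PDGFRB binds B and D chain dimers. PDGFRA marks oligodendrocyte precursors in the brain and is often altered in glioma, PDGFRB marks pericytes, and KIT, the receptor for stem cell factor, sits beside PDGFRA on chromosome 4 and shares its architecture.

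Signals were quantile-normalized between arrays, since the deposited signals were not on a common scale. With the dimmest and brightest 2% of values trimmed off, deposited signals averaged between 155 and 163 on 5 arrays, against 192 on control decoy replicate 3. Log2 differences are those of the normalized signal plus an offset of 7, miR-10b decoy minus control decoy, and understate the change of dim genes. Genes whose mean signal lay under 15.6, the 30th percentile over genes, were not tested, and this level is called the filter level below. A gene is called higher or lower where limma's test, adjusted by Benjamini-Hochberg over all 13842 genes tested, gave p under 0.05. The median log2 difference over these genes was -0.02. In bulk RNA a change in the share of cells that express a gene and a change in RNA per cell cannot be told apart. The 3'/5' ratio of actin, which grows as RNA degrades, lay between 7.36 and 10.6 on the miR-10b decoy arrays and between 5.27 and 6.22 on the control decoy arrays. The same ratio of GAPDH overlapped between the groups, at 0.934 to 0.948 with the miR-10b decoy and 0.931 to 0.967 with the control decoy. The part of RNA quality in the results below was not tested.

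PDGFRA was the member with the largest difference, PDGFC was higher by a small amount, and 0 members were lower. PDGFA, PDGFB and PDGFRB did not pass the threshold, PDGFA by a narrow margin. PDGFD and KIT had mean signals under the filter level and were not tested. Of the 5 members tested 2 passed, both higher, where 33.9% of all genes tested passed, 16.6% higher and 17.3% lower.

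The windows before the RefSeq starts of PDGFRA and PDGFA are printed because these genes hold the largest differences among the receptors and the ligands. Each runs 250 bases up to the start, 5′ to 3′, in RefSeq's GRCh38.p14 sequence. Capitals mark the GC box GGGCGG, the CCAAT box CCAAT, the TATA box TATAA, the hypoxia response core ACGTG and the AP-1 site TGANTCA, each searched on both strands.
PDGFRA, upstream start, chr4:54229043-54229292, plus strand: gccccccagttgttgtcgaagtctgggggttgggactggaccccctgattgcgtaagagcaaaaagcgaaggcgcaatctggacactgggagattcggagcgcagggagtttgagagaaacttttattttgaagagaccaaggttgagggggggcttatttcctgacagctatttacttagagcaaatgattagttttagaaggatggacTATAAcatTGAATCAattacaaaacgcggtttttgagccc
PDGFRA, downstream start, chr4:54233710-54233959, plus strand: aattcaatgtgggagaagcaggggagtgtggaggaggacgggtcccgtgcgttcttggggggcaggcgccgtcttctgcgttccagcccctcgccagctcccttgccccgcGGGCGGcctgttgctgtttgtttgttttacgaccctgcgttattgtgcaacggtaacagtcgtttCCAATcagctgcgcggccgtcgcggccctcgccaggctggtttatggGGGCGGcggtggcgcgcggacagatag
PDGFA, start with a TATA box, chr7:519847-520096, minus strand: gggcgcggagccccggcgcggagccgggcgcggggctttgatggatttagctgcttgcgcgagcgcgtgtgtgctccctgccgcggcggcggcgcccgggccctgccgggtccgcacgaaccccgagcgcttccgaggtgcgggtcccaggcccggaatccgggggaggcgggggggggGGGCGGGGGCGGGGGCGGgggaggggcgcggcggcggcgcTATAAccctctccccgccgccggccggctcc

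The PDGFRA starts lie 4667 bases apart. The upstream window holds TATAA 40 bases before the start and an AP-1 letter match 32 bases before it, whereas the downstream window holds 2 GC boxes and a CCAAT box and has a GC content of 64.0%, against 46.8% upstream. The PDGFA window, chosen from 4 for its TATA box, has 3 GC boxes that follow each other 71, 65 and 59 bases before the start and TATAA 31 bases before it. Among 35116 windows of the same length 42.6% held a GC box, 32.01% a CCAAT box, 18.9% TATAA, 18.5% ACGTG and 6.57% an AP-1 match. Windows were listed for 5 of the 7 genes, 9 in all, of which 8 held a GC box and 1 held ACGTG, that of KIT. A match of letters is a description and does not show that a factor binds there.

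Among the receptors, PDGFRA, which encodes the alpha receptor, had signals of 274, 254 and 330 on the miR-10b decoy arrays, against 82.4, 82.6 and 98.3 on the control decoy arrays. Every miR-10b decoy array lay well above every control decoy array. The means were 286 ± 39.4 with the miR-10b decoy and 87.8 ± 9.12 with the control decoy (SD, n = 3 each), a log2 difference of 1.62 (SE 0.12, limma adjusted p = 3.4e-06). The gene ranked 55 of 13842 by log2 difference, counted from the highest, and 1.92% of genes tested were higher by a log2 difference of 1 or more. The call held at 18 of 19 alternative settings and ended when its 4 probe sets were averaged (0.38, adjusted p = 0.253).

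The 4 PDGFRA probe sets did not move together. The second brightest, 215305_at, had signals of 83.3, 69.1 and 87.7 with the miR-10b decoy, against 55.0, 66.5 and 98.9 with the control decoy, and the groups overlapped. Its log2 difference was 0.14 (SE 0.20) and did not pass (adjusted p = 0.652 in limma's fit of 28764 probe sets, of which 12.3% were higher and 12.6% lower). The log2 ratio of the main probe set 203131_at over this one was 1.75 ± 0.10 on the miR-10b decoy arrays and 0.27 ± 0.27 on the control decoy arrays (SD, n = 3 each). The ratios did not overlap, and the exact two-sided permutation p was 0.1, the smallest that 3 against 3 arrays allow (0.2 after adjustment over 4 such ratios). The other 2 probe sets, 1554828_at and 211533_at, stayed under the filter level on all 6 arrays, between 0.297 and 9.005. The call of PDGFRA therefore rests on 1 probe set. The annotation ties 203131_at to a RefSeq transcript and 215305_at to another sequence record. Which transcripts each probe set reads was not settled here.

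PDGFRB, the beta receptor, had 1 probe set, with signals of 144, 152 and 161 on the miR-10b decoy arrays, against 119, 149 and 152 on the control decoy arrays. The groups overlapped, and the log2 difference of 0.12 (SE 0.12) did not pass (adjusted p = 0.475). Its 95% confidence interval, from -0.14 to 0.38, lies below that of PDGFRA, from 1.35 to 1.90. The within-array log2 ratio of PDGFRA over PDGFRB was 0.87 ± 0.15 with the miR-10b decoy and -0.63 ± 0.15 with the control decoy (SD, n = 3 each), and the ratios of the groups did not overlap. The difference of 1.504 in this ratio had an exact permutation p of 0.1, the smallest possible here (0.2 adjusted over the 4 ratios).

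KIT had 1 probe set near background. Its signals were 5.62, 4.57 and 15.9 on the miR-10b decoy arrays, against 0.818, 2.13 and 3.37 on the control decoy arrays. The groups did not overlap, but 5 of the 6 arrays lay under the filter level and miR-10b decoy replicate 3 only just above it, so no fold is given. With no filter on dim genes the difference did not pass (limma adjusted p = 0.128). KITLG, which encodes stem cell factor, the ligand of KIT, was well above background at 451 ± 35.1 with the miR-10b decoy and 451 ± 32.9 with the control decoy (SD, n = 3 each). Its log2 difference was -0.0024 (SE 0.09, adjusted p = 0.988).

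**Figure D1:**
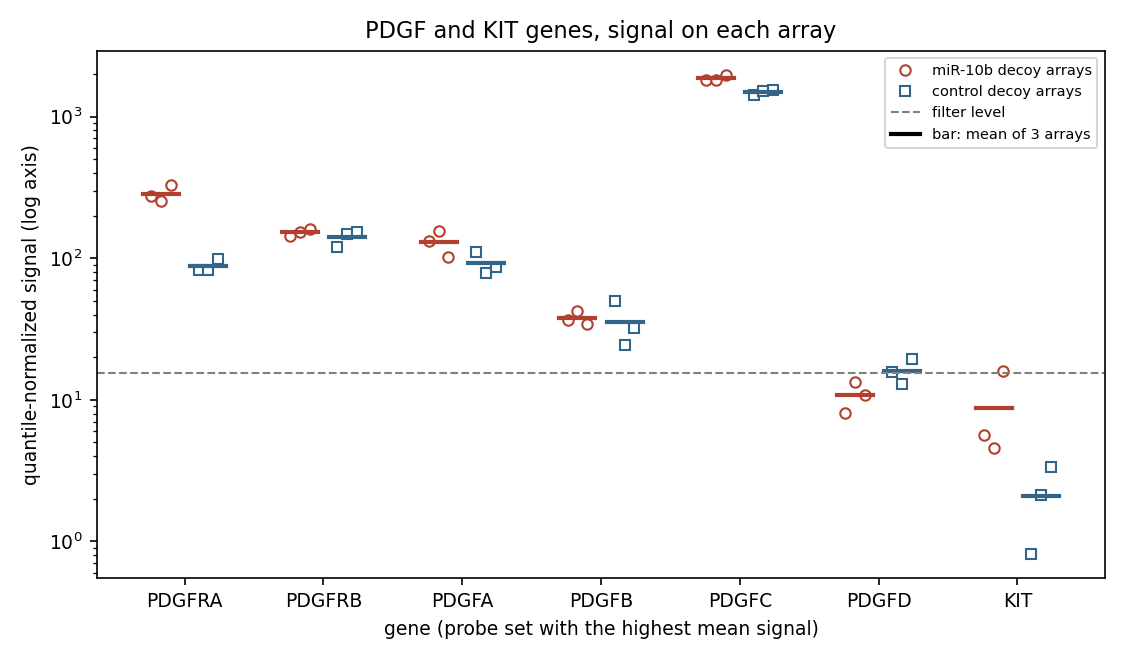
Quantile-normalized signal on a log axis for the main probe set of each of the 7 genes, with 3 miR-10b decoy arrays (circles) left of 3 control decoy arrays (squares), bars at the group means and a dashed line at the filter level of 15.6. PDGFRA shows the widest gap between groups above that line, PDGFC a narrow gap with no overlap, and PDGFD and KIT lie around or under the line.

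Among the ligands, PDGFA, the A chain that signals through PDGFRA, was read by a pair of probe sets. The main one, 216867_s_at, had signals of 133, 155 and 103 on the miR-10b decoy arrays, against 111, 78.5 and 86.3 on the control decoy arrays. The groups overlapped, since miR-10b decoy replicate 3 lay below control decoy replicate 1. The log2 difference was 0.47 (SE 0.17, 95% confidence interval 0.10 to 0.83) and just missed the threshold (limma adjusted p = 0.0502). It passed at 7 of 19 alternative settings, among them with miR-10b decoy replicate 3 left out (0.62, adjusted p = 0.0174), with control decoy replicate 1 left out (0.60, adjusted p = 0.0231) and with the replicate number as a block (adjusted p = 0.0489).

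The second PDGFA probe set, 205463_s_at, had signals of 110, 91.1 and 127 with the miR-10b decoy, against 35.8, 47.4 and 44.7 with the control decoy. Here the groups lay well apart, and the log2 difference was 1.23 (SE 0.17, adjusted p = 3.4e-04 in limma's fit of all probe sets). It was higher on this probe set, as was the mean of both (0.85, adjusted p = 4.3e-04). The log2 ratio of the main over the second probe set was 0.23 ± 0.51 on the miR-10b decoy arrays and 0.99 ± 0.42 on the control decoy arrays (SD, n = 3 each), and the groups overlapped (exact permutation p = 0.2, 0.267 adjusted over the 4 ratios). By the suffix _s_at, either may read more than 1 transcript. The annotation ties 205463_s_at to a RefSeq transcript and the main probe set to another sequence record, which does not settle what each reads.

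PDGFC, the C chain, is secreted with an extra domain that proteases remove before it can bind PDGFRA. Its main probe set, 218718_at, had the highest signals among the members' probe sets, 1803, 1809 and 1973 on the miR-10b decoy arrays, against 1424, 1505 and 1545 on the control decoy arrays. The groups did not overlap, and PDGFC was higher by a log2 difference of 0.32 (SE 0.06, limma adjusted p = 0.00138). Of all genes tested 22.4% had every miR-10b decoy array above every control decoy array and 24.0% the reverse, and the separation of PDGFC is read against these shares.

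The PDGFC call turned on the scaling and on the probe set. In the deposited signals, control decoy replicate 3 stood at 1826, within the miR-10b decoy arrays at 1702, 1770 and 1851, and the difference of 0.20 did not pass (adjusted p = 0.262). Without that array it was 0.32 in the deposited signals (adjusted p = 0.00499). The other PDGFC probe set, 222719_s_at, had signals of 68.7, 83.8 and 128 with the miR-10b decoy, against 109, 95.6 and 94.1 with the control decoy, and the groups overlapped. Its log2 difference of -0.13 (SE 0.19) did not pass (adjusted p = 0.687), and the mean of both probe sets did not either (0.10, adjusted p = 0.597). The log2 ratio of the main over the other probe set was 4.26 ± 0.36 with the miR-10b decoy and 3.81 ± 0.17 with the control decoy (SD, n = 3 each), with an exact permutation p of 0.3. The annotation ties the main probe set to a RefSeq transcript and 222719_s_at to another sequence record, which does not settle what each reads.

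PDGFB, the B chain that binds both receptors, was read by 4 probe sets. The main one, 216061_x_at, had signals of 36.9, 42.7 and 34.6 on the miR-10b decoy arrays, against 49.6, 24.4 and 32.02 on the control decoy arrays. The groups overlapped, and the log2 difference of 0.13 (SE 0.25, 95% confidence interval -0.41 to 0.67) did not pass (limma adjusted p = 0.726). This interval leaves room for changes in either direction. The suffix _x_at says that some of its probes may bind unrelated transcripts. The annotation ties 204200_s_at, and not the main probe set, to a RefSeq transcript. Both 204200_s_at and 217112_at lay between 1.02 and 3.98 on all 6 arrays.

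The last PDGFB probe set, 216055_at, ran the other way at low signal. It read 3.15, 3.10 and 7.07 with the miR-10b decoy, against 15.2, 10.9 and 27.5 with the control decoy. The groups did not overlap, but only control decoy replicate 3 lay above the filter level, and the probe set was not tested. PDGFD, the D chain, which is secreted in a latent form and binds PDGFRB, had signals of 8.08, 13.4 and 10.8 on the miR-10b decoy arrays, against 15.8, 13.03 and 19.4 on the control decoy arrays. The groups overlapped around the filter level. In limma's fit of all probe sets, whose filter was lower, its log2 difference of -0.38 (SE 0.33) did not pass (adjusted p = 0.452), and the second PDGFD probe set was dimmer, between 3.59 and 19.5.

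**Figure D2:**
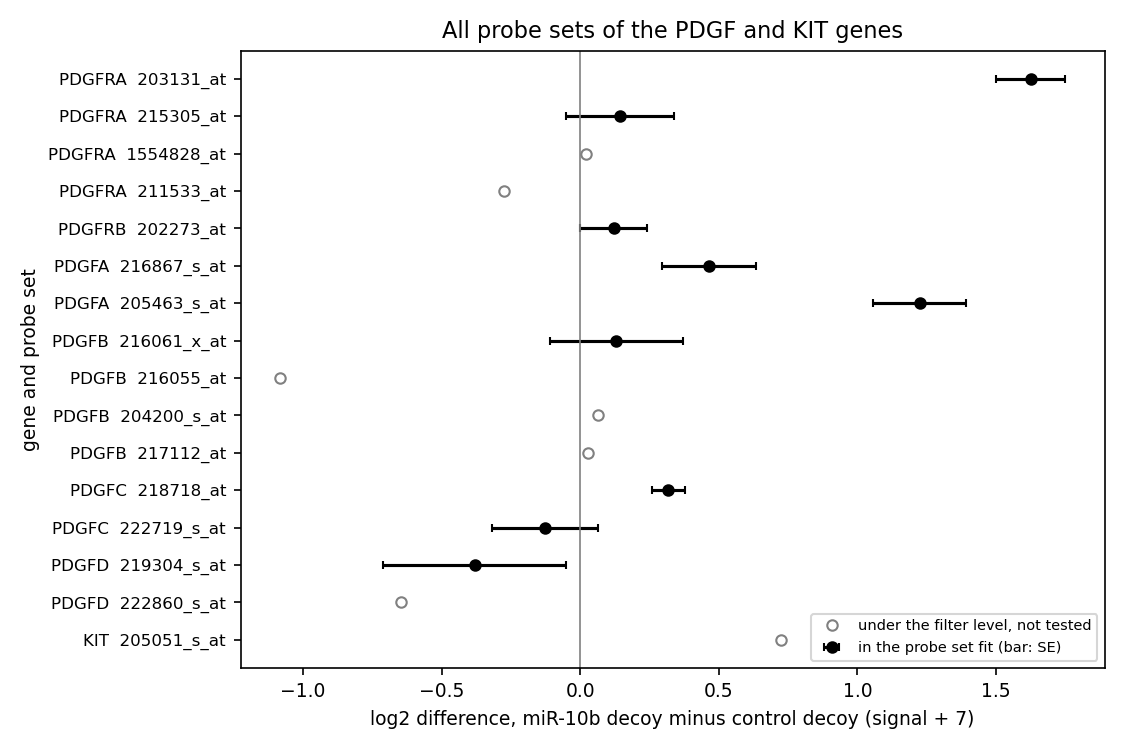
Log2 difference (signal plus 7), miR-10b decoy minus control decoy, for each of the 16 probe sets, with the SE from the fit of all probe sets where it was tested (9 filled points) and open points for 7 probe sets under that fit's filter. The main PDGFRA probe set (1.62) and the second PDGFA probe set (1.23) have the highest values, the untested PDGFB probe set 216055_at has the lowest (-1.08), and probe sets of PDGFRA, PDGFA and PDGFC differ from one another.

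In the fit of all probe sets, where the filter lay at a signal of 11.2, 9 of the 16 were tested. There 3 were higher, namely 203131_at of PDGFRA, 205463_s_at of PDGFA and 218718_at of PDGFC, and 0 were lower, set against 12.3% and 12.6% of all probe sets.

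**Figure D3:**
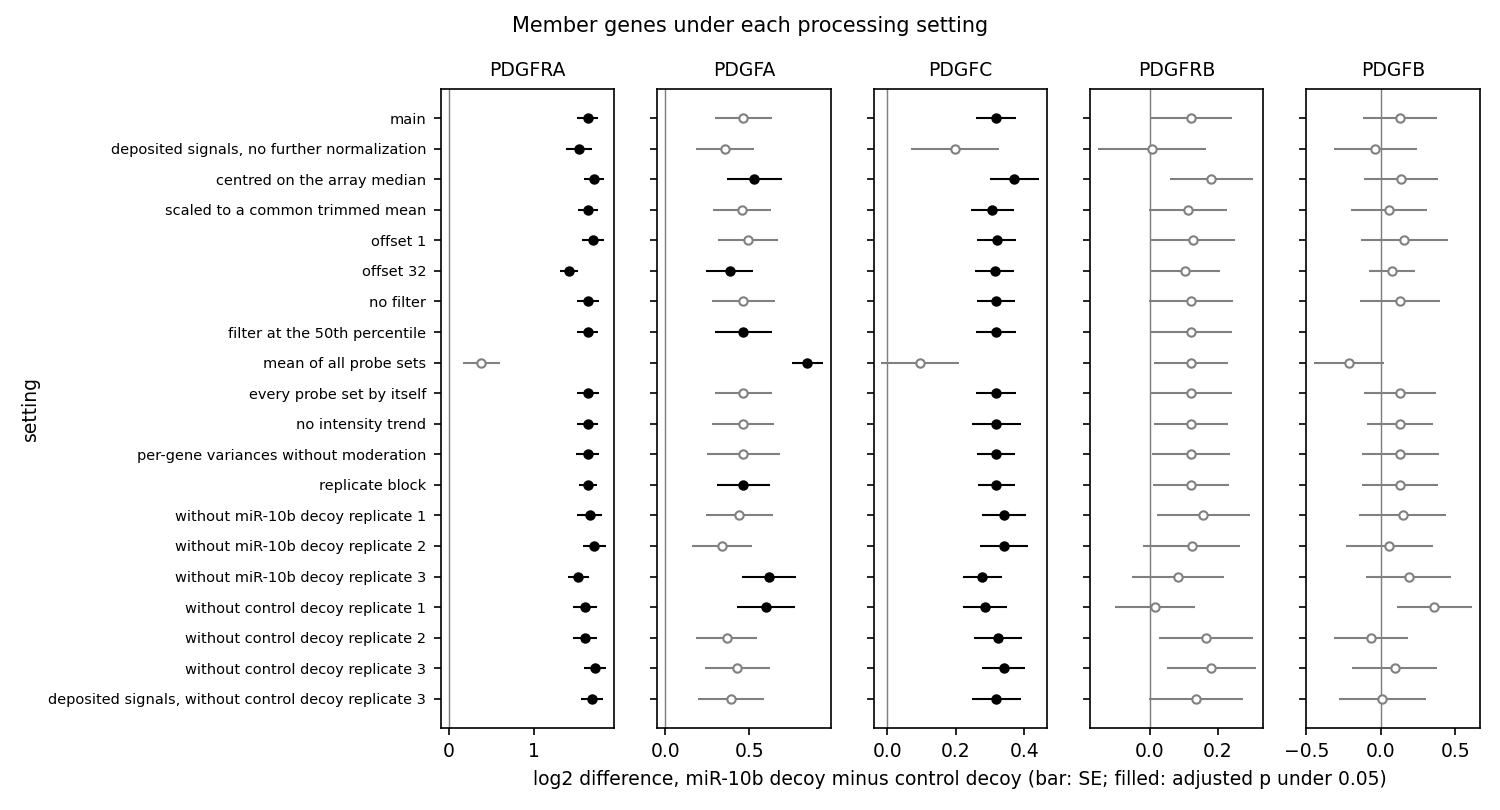
Log2 difference (bar, SE) of the 5 tested members under the chosen setting and 19 alternatives, filled where the adjusted p was under 0.05. PDGFRA stayed between 1.40 and 1.70 in every setting but the mean of all probe sets (0.38), PDGFA moved across the threshold, and PDGFRB and PDGFB stayed short of it wherever tested (the filter at the 50th percentile left PDGFB out). Each gene has its own horizontal scale.

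Of the genes that release or bind the ligands, PLAT, PLAU and SPARC were lower and none was higher. PLAT, the tissue plasminogen activator, which can process the C chain, had a mean signal of 131 with the miR-10b decoy and 177 with the control decoy and was lower by a log2 difference of -0.41 (SE 0.11, limma adjusted p = 0.0108). PLAU, the urokinase that can process the D chain, was lower at -0.20 (SE 0.03, adjusted p = 9.8e-04), its call ending without the intensity trend (adjusted p = 0.0501). SPARC, a matrix glycoprotein that binds PDGF, was lower at -0.63 (SE 0.06, adjusted p = 8.3e-06), with signals of 1703, 1703 and 1578 on the miR-10b decoy arrays, against 2697, 2593 and 2460 on the control decoy arrays. Of 10 tested genes of ligand activation, co-receptors and binding proteins 0 were higher, 3 were lower and 7 did not pass, with a list median of -0.23 beside -0.02 over all genes tested. Of all genes tested 16.6% were higher and 17.3% lower. The lower count was 2 without control decoy replicate 2, where PLAT did not pass (-0.36, adjusted p = 0.0525), 2 without the intensity trend and 4 without miR-10b decoy replicate 1.

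Among the genes of proteins that carry the signal inside the cell, SRC was higher and STAT3, PIK3CB and SHC1 were lower. SRC, a kinase recruited by the receptors, was higher at 0.55 (SE 0.11, limma adjusted p = 0.00288), while the transcription factor STAT3 was lower at -0.43 (SE 0.07), the catalytic lipid kinase subunit PIK3CB at -0.39 (SE 0.09) and the adaptor SHC1 at -0.18 (SE 0.04). Of 25 tested receptor effectors 2 were higher, 5 were lower and 18 did not pass, with a median of -0.0041, where 16.6% of all genes tested were higher and 17.3% lower. Leaving out miR-10b decoy replicate 2 gave 1 higher and 3 lower, and leaving out miR-10b decoy replicate 3 or control decoy replicate 3 gave 3 and 3. Without control decoy replicate 2 there were 1 and 4. Centring each array gave 7 higher and 4 lower, and averaging each gene's probe sets gave 1 and 1. That averaging ended the calls of SRC, STAT3, PIK3CB and SHC1 (adjusted p from 0.295 to 0.967), and those of SRC and SHC1 also without moderation.

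Among negative regulators of receptor signalling, SOCS3, DUSP4, CBLB and GRB10 were higher. SOCS3, which blocks cytokine receptor kinases, had signals of 1140, 1173 and 1287 on the miR-10b decoy arrays, against 653, 605 and 698 on the control decoy arrays, and was higher by 0.87 (SE 0.07, limma adjusted p = 6.3e-06). The phosphatase DUSP4, which acts on MAP kinases, was higher at 0.51 (SE 0.06). The ubiquitin ligase CBLB was higher at 0.43 (SE 0.06) and the adaptor GRB10 at 0.34 (SE 0.05). CBL, the ubiquitin ligase that marks active PDGF receptors and KIT for removal, was higher at 0.56 (SE 0.09) and was named here after its value was seen. Of 18 tested genes 6 were higher, 0 were lower and 12 did not pass, with a median of 0.17, where 16.6% of all genes tested were higher and 17.3% lower. In the deposited signals 5 were higher, where the GRB10 call ended (adjusted p = 0.149) and 1094 of all genes were higher. After centring 11 were higher, as were 2861 of all genes, and 0 were lower in both. With the replicate number as a block, without miR-10b decoy replicate 1 and without control decoy replicate 2, 6 were higher and 1 was lower.

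Of the genes that growth factor receptors induce early, 10 of 19 tested were higher. KLF6, a zinc finger transcription factor, had signals of 2223, 2285 and 2582 on the miR-10b decoy arrays, against 835, 870 and 1002 on the control decoy arrays, and was higher by 1.38 (SE 0.08, limma adjusted p = 4.7e-07). ATF3, a stress-responsive factor, was higher at 1.25 (SE 0.11), the phosphatase DUSP1 at 0.80 (SE 0.04) and the AP-1 subunit JUN at 0.61 (SE 0.05). Lower were EGR3 at -1.03 (SE 0.11), EGR1 at -0.28 (SE 0.06) and the chemokine CCL2 at -0.81 (SE 0.08), all 3 named after their values were seen. In this list 3 were lower and 6 did not pass, with a median of 0.19, where 16.6% of all genes tested were higher and 17.3% lower. In the deposited signals 7 were higher and 5 lower. Many stimuli besides PDGF induce these genes, and ATF3 did not pass when its probe sets were averaged (adjusted p = 0.0838).

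**Figure D4:**
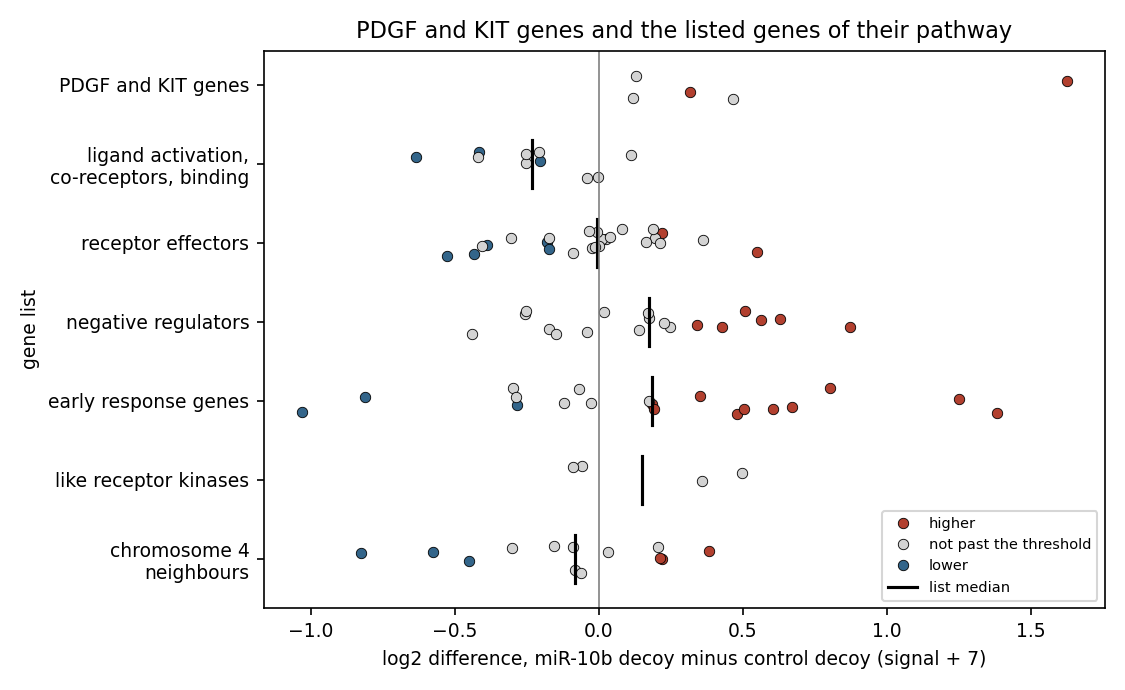
Log2 difference (signal plus 7), miR-10b decoy minus control decoy, of each tested gene in the PDGF and KIT set and in 6 lists of pathway genes and neighbours, coloured by whether the gene was higher, lower or did not pass, with a line at the median of each of the 6 lists. Negative regulators have 6 higher and 0 lower genes, ligand activation and binding genes 0 higher and 3 lower, and PDGFRA lies to the right of all other points.

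The receptor kinases of like architecture, CSF1R, FLT1, FLT4 and KDR, did not pass. In the RefSeq gene table KIT follows PDGFRA directly on chromosome 4, KDR follows KIT, and GSX2 and CHIC2 lie on the other side of PDGFRA. CHIC2 was higher at 0.22 (SE 0.07, limma adjusted p = 0.0312), against 1.62 for PDGFRA, while GSX2 (-0.06, adjusted p = 0.903) and KDR (-0.09, adjusted p = 0.866) did not pass. Farther out, TMEM165 was lower at -0.58 (SE 0.07), NMU at -0.82 (SE 0.18) and SCFD2 at -0.45 (SE 0.11), and EXOC1 was higher at 0.38 (SE 0.08). The TMEM165 call ended when its probe sets were averaged (-0.24, adjusted p = 0.194), and those of SCFD2 (adjusted p = 0.0809) and EXOC1 (adjusted p = 0.0529) without moderation. Of 13 tested neighbours 3 were higher and 3 lower, with a median of -0.08, near the 16.6% higher and 17.3% lower over all genes tested. The higher count was 1 without miR-10b decoy replicate 3, control decoy replicate 2 or control decoy replicate 3, and 0 in the deposited signals, where the EXOC1 call ended (adjusted p = 0.0876).

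Markers of the cell types in which these receptors are best known were measured beside them. Of 8 oligodendrocyte precursor markers 6 had mean signals under the filter level, OLIG1 and SOX10 among them. The summed signal of the list was between 296 and 334 on the miR-10b decoy arrays and between 188 and 217 on the control decoy arrays. BCAN, a brain proteoglycan, was higher in it at 1.18 (SE 0.19, limma adjusted p = 5.3e-04), and CSPG4 did not pass (0.28, adjusted p = 0.1003). OLIG2, a factor of that lineage, read 19.7, 19.7 and 29.9 with the miR-10b decoy, against 0.806, 5.23 and 7.80 with the control decoy. Its mean lay under the filter level, so it was not among the genes tested. In limma's fit of all probe sets it was higher (1.41, SE 0.39, adjusted p = 0.0198), as were 12.3% of all probe sets. The filter of that fit lay lower, at 11.2, and all 3 control decoy arrays were under it. OLIG2 entered that fit only through its signals on the miR-10b decoy arrays, so this call is no support. The list had 2 higher genes in place of 1 in that fit, where the count includes OLIG2, after centring, with no filter and without control decoy replicate 2. The summed signal was thus higher on the arrays where PDGFRA was higher, but it rests mostly on the brightest genes of the list. These were CSPG4 (means 148 with the miR-10b decoy and 120 with the control decoy) and BCAN (118 and 48.9). The part of these markers in the PDGFRA difference was not tested.

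Of 6 pericyte markers 4 were tested. MCAM (0.94, SE 0.08) and ABCC9 (0.90, limma adjusted p = 0.0443) were higher and NOTCH3 (-0.57, adjusted p = 0.0124) was lower, where 16.6% of all genes tested were higher and 17.3% lower. The summed signal lay between 868 and 971 on the miR-10b decoy arrays and between 531 and 618 on the control decoy arrays. MCAM was the brightest gene in this sum, at means of 657 with the miR-10b decoy and 340 with the control decoy. The higher count was 1 in place of 2 in the deposited signals, at a common trimmed mean, at an offset of 1, with no filter and with the filter at the 50th percentile. It was also 1 in the fit of all probe sets, without the intensity trend, and without control decoy replicate 3 or any 1 of the 3 miR-10b decoy arrays. Centring gave 3 higher, no moderation 1 higher and 0 lower, and the averaged probe sets 0 higher and 0 lower. ABCC9 read 9.57 on control decoy replicate 1, under the filter level. Of 4 mast cell markers measured 3 lay under the filter level and 0 passed. The labelled glioma origin was checked against VIM, NES, SOX2, CD44 and S100B. VIM and CD44 were bright, NES was lower at -0.38 (SE 0.09), and S100B and the astrocyte marker GFAP had mean signals under the filter level. SOX2 was dim, at a mean signal of 19.8, with 1 array of each group under the filter level. Its groups overlapped and it did not pass (-0.44, SE 0.35, limma adjusted p = 0.374). Of the remaining lists, 2 of 3 tested astrocyte markers were higher (summed signal 202 to 206 with the miR-10b decoy and 126 to 167 with the control decoy). Of 3 tested endothelial markers 2 were lower (207 to 214 with the miR-10b decoy and 253 to 324 with the control decoy). Of 2 tested melanocyte markers 1, MITF, was lower, and it gave most of the summed signal (322 to 355 with the miR-10b decoy and 418 to 495 with the control decoy). All 5 fibroblast markers were tested, with 2 higher and 1 lower (6642 to 6676 with the miR-10b decoy and 8161 to 8708 with the control decoy). The lower one, COL1A2, was the brightest, at means of 2881 with the miR-10b decoy and 4984 with the control decoy. Of 4 macrophage markers 1 was tested and did not pass (62.9 to 88.9 with the miR-10b decoy and 57.3 to 79.5 with the control decoy). Over all genes tested 16.6% were higher and 17.3% lower. The astrocyte count was 0 without moderation. It was 1 in the deposited signals, with no filter, with the filter at the 50th percentile, with averaged probe sets and without miR-10b decoy replicate 1 or 3 or control decoy replicate 1. The endothelial count was 0 without control decoy replicate 2 and with averaged probe sets. It was 1 with no filter, without moderation and without miR-10b decoy replicate 3 or control decoy replicate 1. The lower fibroblast count was 2 at a common trimmed mean and without control decoy replicate 3. The higher fibroblast count was 1 with the filter at the 50th percentile and with averaged probe sets. Of the glioma and progenitor markers 0 were lower without moderation, and 1 was higher and 0 lower with averaged probe sets. The part of these markers in the results was not tested.

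The tested genes with profiles most like that of PDGFRA over the 6 arrays, by the root mean square difference of mean-centred log2 signals, were NRG1 (0.06), CCDC169 (0.08) and BMP2 (0.08). NRG1 encodes a ligand of the ERBB receptors and had mean signals of 1351 with the miR-10b decoy and 451 with the control decoy. Those most like PDGFC were the chaperone gene CANX (0.02), CYB5R4 (0.02) and RCC1L (0.02). Like PDGFC, these 3 did not pass in the deposited signals (adjusted p from 0.207 to 0.416), and CYB5R4 did not without miR-10b decoy replicate 3 either (adjusted p = 0.0551). Arrays of 2 groups underlie this measure, and all 6 genes differed between the groups by a like amount to their member.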

How the data were processed

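RNA from 6 human U87-2M1 cell samples was measured on arrays of 54675 probe sets, 3 arrays per group. The deposited values are linear signal intensities, and MAS5 is the tool named per the submitters' processing notes. Its version and scaling target are not stated in the labels. The number of arrays limits the precision.

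Groups and replicate numbers came from the titles. Gene symbols came from the platform annotation, 41091 probe sets having 1 symbol, 1801 several and 11777 none, and 41037 matched a RefSeq entry (GRCh38.p14) by Entrez identifier. Signals were quantile-normalized, and log2(signal + 7) was compared with limma 3.58.1 in R 4.3.3 (lmFit, eBayes with intensity trend, two-sided, Benjamini-Hochberg, threshold 0.05), with 7.60 prior and 4 residual degrees of freedom. Each of 19775 genes was represented by its brightest probe set, and those below the 30th percentile of mean signal were not tested. Ratios of probe sets were tested by exact permutation. The genes named are the 7 members, up to 4 genes past the threshold with the smallest p in each list, KITLG, and the 3 most alike profiles of each member past the threshold. Others were named after their values were seen. The members, lists, offset and normalization were chosen with earlier results of these data known.

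Tested on simulated data, in which 200 of 13842 genes were altered, the comparison found 46.3% at 1.5-fold, 63.4% at 2-fold and 87.1% at 3-fold, and 3.70% of its calls were false. That is a far smaller share than the 33.9% of genes that passed in the data. The Benjamini-Hochberg adjustment depends on this share, so the rates do not carry over directly to the data. Alternatives covered the scaling, offset, filter, probe set choice, variance model, replicate block and each array left out.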

Additional observations from a re-analysis of the deposited data

How the results depend on the processing

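The 2 members past the threshold became 1 in the deposited signals (PDGFRA alone) and 1 with the mean of all probe sets (PDGFA alone), and 2 to 3 when 1 array was left out. All genes past the threshold, 4696 (2304 higher and 2392 lower), became 3045 with the mean of all probe sets (1479 and 1566) and 2831 without moderation (1456 and 1375). The split moved with the scaling, to 1094 higher against 2561 lower in the deposited signals and 2861 against 1740 after centring. The median log2 difference over all genes was -0.14 in the deposited signals. Of the listed pathway genes 21 were higher and 14 lower, against 13 higher in the deposited signals and 9 lower with the mean of all probe sets. Leaving out 1 array gave 3713 to 4170 genes in all. Values that did not pass changed sign for PDGFB, to -0.038 in the deposited signals and -0.21 with the mean of all probe sets, and ranged from -0.064 to 0.361 when 1 array was left out. KITLG changed sign too, to 0.091 after centring, 0.024 at a common trimmed mean, -0.063 to 0.058 when 1 array was left out, and 0.030 in the deposited signals without control decoy replicate 3. That last setting was chosen after seeing the data. The cause was not tested. With the replicate number as a block 4553 genes passed and 3 members did, PDGFA joining at adjusted p = 0.0489. Deviations of same-numbered arrays correlated with r of 0.03, -0.03 and -0.01, so no shared deviation by number was seen. This cannot show whether the arrays were handled in pairs, which the labels do not say. Dim signal limits PDGFB, PDGFD and KIT.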
